A study of Mus musculus with 38 samples.

Results

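The comparison described here asks whether loss of CHD1 changed gene expression in the same way in 2 tissues, the central nervous system (CNS) and the draining lymph node (dLN). It uses 14 of the 38 RNA sequencing libraries of the study, all those from CHD1 animals, chosen by their labels. The other libraries, on the glucocorticoid receptor and on cultured cells, were not used here. The groups were CHD1 WT from the CNS (n = 3), CHD1 cKO from the CNS (n = 4), CHD1 WT from the dLN (n = 3) and CHD1 cKO from the dLN (n = 4), all with the C57/B6 background named in the labels. In every group, naive T cells that carry the 2D2 receptor were taken from WT or cKO donors, turned in vitro into inflammatory Th17 cells (Th17Inf), and transferred into WT recipients to induce experimental autoimmune encephalomyelitis (EAE). At peak disease 2000 cells positive for 2D2 were sorted for each library and their messenger RNA was amplified for 12 cycles. The recipients kept their own lymphocytes and myeloid cells, and the ages, the cell type in which Chd1 was deleted and the agent that deleted it are not given in the sources used here. The library titles call the mutant KO and the study's design calls it cKO. Nothing in the labels says that libraries came from separate animals, so p values measure the spread between these libraries. Each tissue was counted in its own deposited table, so tissue and table cannot be told apart in any difference between tissues.

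CHD1 is an ATP-dependent chromatin remodeller that recognises a histone mark of active promoters and spaces nucleosomes over transcribed genes. Th17 cells are CD4+ helper T cells defined by their production of interleukin 17, and those exposed to IL-23 can cause tissue inflammation. EAE is a mouse model of multiple sclerosis in which T cells that recognise myelin enter the brain and spinal cord, and the 2D2 receptor recognises a myelin protein. The lymph node is where such cells are activated and divide, and the CNS is where they meet their antigen beside macrophages and microglia.

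For each gene the genotype effect, cKO against WT, was taken in each tissue as a log2 fold change, and the interaction is the effect in the CNS minus the effect in the dLN. It is positive where cKO raised a gene more, or lowered it less, in the CNS than in the dLN. Levels are scaled CPM, CPM of the TMM-scaled library size, and a gene was called at an edgeR adjusted p under 0.05. Libraries held 4911109 to 6262849 counts in the CNS and 3148634 to 5158450 in the dLN, so that 3 counts, the limit a count of 0 allows, are 0.390 to 0.547 scaled CPM in the CNS and 0.778 to 0.970 in the dLN, for counting error only. The share of counts on repeats and ribosomal RNA was 13.3% to 33.2% in the CNS and 42.4% to 60.1% in the dLN.

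Chd1 itself (chr17:15704967-15772610, plus strand, GRCm38) was low in every library. Its scaled CPM was 4.37, 5.07 and 4.19 in WT CNS, 5.15, 5.30, 2.88 and 4.29 in cKO CNS, 6.06, 5.50 and 5.76 in WT dLN, and 4.93, 6.56, 3.09 and 4.01 in cKO dLN. The genotypes overlapped in both tissues, with log2 fold changes of -0.05 in the CNS and -0.31 in the dLN (edgeR adjusted p = 0.963 and 0.605) and an interaction of 0.27 ± 0.39 (SE, adjusted p = 0.772). Counts over the whole gene do not show whether a floxed part is missing, so this neither checks nor contradicts the genotype labels.

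The sorted cells were checked against their markers, because the libraries differ in what else they hold. Of 12 T cell lineage markers (the CD3 chains, CD4, receptor constant regions and others) every one was detected in each group. Their summed level was 27378 to 34827 scaled CPM in WT CNS and 14427 to 34701 in cKO CNS. In the dLN it was 22942 to 26023 in WT against 8854 to 19135 in cKO, without overlap. Gene by gene the 12 did not fall as a set in the dLN, where their median log2 fold change was 0.19. Of the 12, 8 were lower in the CNS and higher in the dLN of cKO cells (29.2% of all genes). Trbv16, the variable segment of the 2D2 receptor's beta chain, made up 99.0% to 99.7% of beta variable counts in the CNS and 99.2% to 99.5% in WT dLN. In cKO dLN libraries 1 to 4 it made up 98.1%, 91.8%, 96.9% and 98.7%, below all other libraries. In the same libraries the 13 CD8 T and NK cell markers summed to 370.5, 769.1, 616.2 and 229.9 scaled CPM, against 53.7 to 107 in WT dLN, 130 to 147 in WT CNS and 207 to 329 in cKO CNS. MHC class II and dendritic cell markers (14 genes) summed to 4038 to 7697 in cKO CNS against 2524 to 3163 in WT CNS, and monocyte and macrophage markers (19 genes) to 4228 to 8798 against 4492 to 5887. In the dLN these sums were 110 to 369 and 117 to 223, with no order by genotype. B cell and immunoglobulin markers (18 genes) summed to 41.2 to 68.8 in WT CNS and 97.7 to 467 in cKO CNS, without overlap, and to 178 to 275 in WT dLN and 217 to 449.8 in cKO dLN, with overlap through cKO library 4. Library 4 of cKO dLN lay nearest to WT dLN in both the Trbv16 share and the CD8 T and NK cell marker sum. In bulk RNA of this kind fewer cells of a type and less RNA per cell cannot be told apart.

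**Figure D1:**
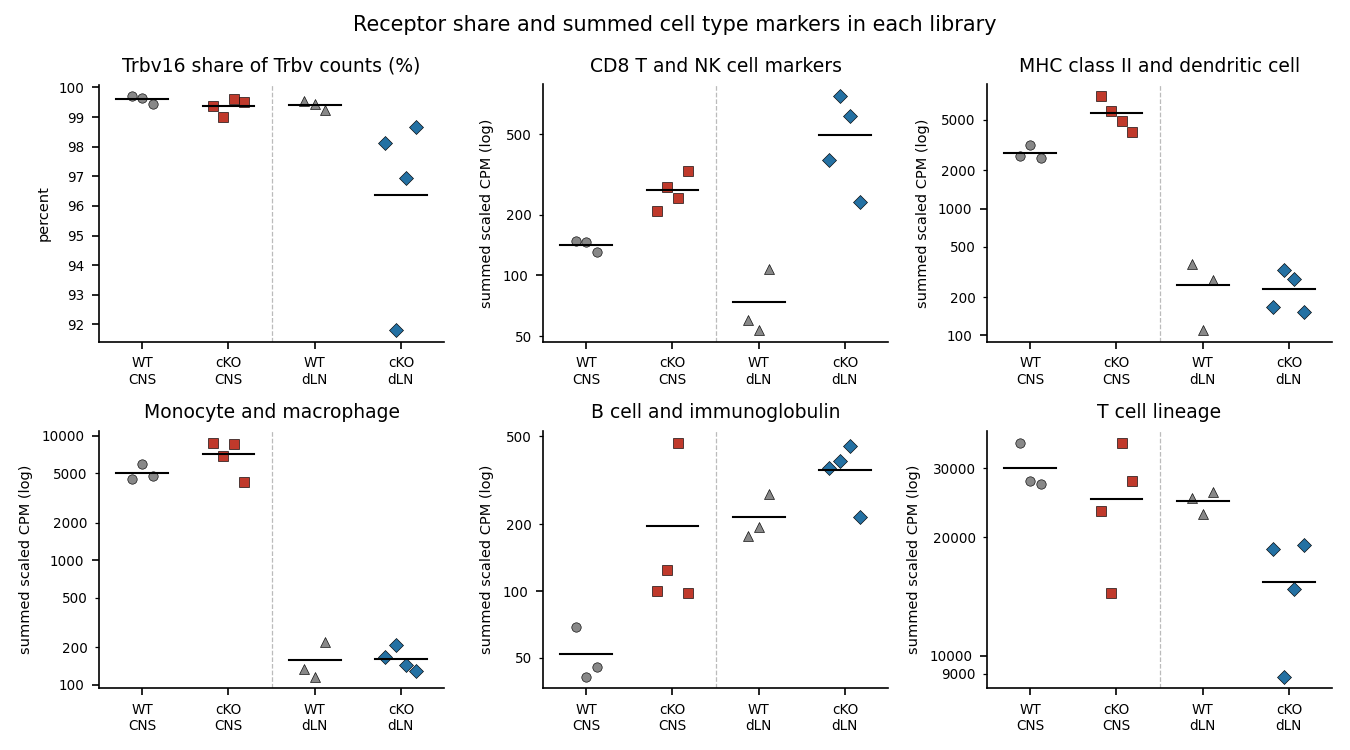
Trbv16 share of beta variable counts (percent) and summed scaled CPM of 5 marker lists (log axes) in each of the 14 libraries. Points are libraries, bars are group means and the dashed line separates the tissues. The cKO dLN libraries have the lowest Trbv16 shares (91.8% to 98.7%) and the highest CD8 T and NK cell marker sums of the dLN, and the cKO CNS libraries the highest MHC class II sums.

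The estimated effects of CHD1 loss in the CNS and the dLN were almost uncorrelated across the 11589 genes tested (Pearson's r = 0.02 and Spearman's rho = -0.07). Genes are not independent replicates. Error in each estimate also draws such a correlation towards 0, so it does not show that the true effects are unrelated. Of these genes 2962 (25.6%) were higher in the CNS and lower in the dLN of cKO cells, 3383 (29.2%) the reverse, 2746 (23.7%) higher in both and 2498 (21.6%) lower in both. The interaction was called for 13 genes (0.112%), 5 positive and 8 negative, and had an unadjusted p under 0.05 for 1103 (9.52%) and 1087 (9.38%). The call rests on nearly every library: the count was 0 without any 1 of the WT CNS libraries, WT dLN library 1 or 2, or cKO dLN library 1, 2 or 3, and 648 without cKO dLN library 4. DESeq2 called 563 genes, 388 positive and 175 negative, and DESeq2's size factors in edgeR left 7 calls, 4 positive and 3 negative. An alternative chosen after the data were seen took the summed CD8 T and NK cell markers as a covariate. With it edgeR called none and gave 590 genes an unadjusted p under 0.05. That sum was 130 to 147 in WT CNS and 207 to 329 in cKO CNS. In the dLN it was 53.7 to 107 in WT and 230 to 769 in cKO. The genotypes did not overlap in either tissue, so here and below this fit cannot separate the markers from genotype.

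Genotype effects passed edgeR's adjusted threshold far more often in the dLN than in the CNS. In the dLN 104 genes rose (0.897%) and 88 fell (0.759%), with 6 to 884 calls when 1 library was left out and 7 when the dLN table was fitted alone. DESeq2 called 236 higher and 348 lower there. In the CNS 3 genes were called (0.0259%). Cd209a, a lectin of dendritic cells, rose (log2 fold change 2.94), and Ogt (-1.05) and the predicted gene Gm39323 (-1.29) fell. DESeq2 called 171 genes in the CNS, and the CNS table fitted alone gave 1 call. The contrast was smaller without adjustment. With DESeq2's size factors in edgeR, 1521 genes in the CNS and 2170 in the dLN had an unadjusted p under 0.05. Median absolute log2 fold changes were 0.19 in the CNS and 0.24 in the dLN. The contrast in counts was not tested. Of the 104 genes that rose in the dLN, 64 were higher and 40 lower in the CNS (median log2 fold change 1.64 in the dLN and 0.12 in the CNS). Of the 88 that fell in the dLN, 33 were lower and 55 higher in the CNS (medians -1.4 and 0.07). These genes were chosen by their dLN effect, which is also a part of the interaction, so a smaller effect in the CNS follows in part from the choice and is a description. Of the 13 interaction genes, 9 were also called in the dLN and 1 was called in the CNS.

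**Figure D2:**
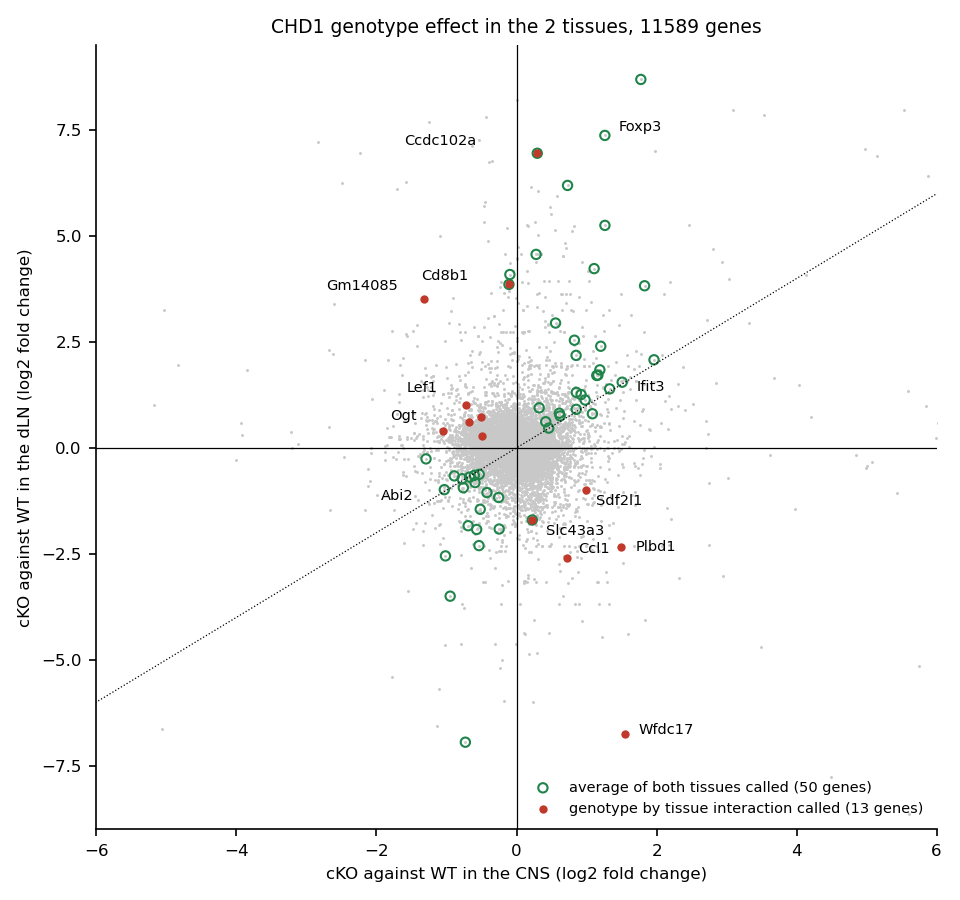
Log2 fold change of cKO against WT in the CNS (x axis) and in the dLN (y axis) for 11589 genes, with equal effects on the dotted line and 16 genes beyond the axes. Red points are the 13 genes called for the interaction, which lie off the line, and green rings the 50 genes called for the average of both tissues. The cloud has no slope (r = 0.02).

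Ogt was the 1 interaction gene that was also called in the CNS. It encodes O-GlcNAc transferase, the enzyme that adds N-acetylglucosamine to nuclear and cytosolic proteins (chrX:101640060-101684351, plus strand). Its scaled CPM was 110, 93.4 and 106 in WT CNS, 54.1, 60.8, 43.5 and 40.5 in cKO CNS, 102, 93.7 and 109 in WT dLN, and 129, 151, 146 and 114 in cKO dLN. All cKO CNS libraries lay below, and all cKO dLN libraries above, every WT library. In the CNS Ogt fell 2.07-fold (log2 fold change -1.05 ± 0.15, edgeR adjusted p = 0.0330), in the dLN the log2 fold change was 0.41 (adjusted p = 0.158), and the interaction was -1.46 ± 0.21 (95% interval -1.91 to -1.01, adjusted p = 0.0297). Ogt kept its call in 15 of 25 alternatives and its sign in all of them (-1.60 to -1.16).

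A further 5 named genes had a more negative cKO effect in the CNS. Lef1, a transcription factor of naive and memory T cells (chr3:131110471-131224356), measured 52.2, 44.5 and 38.6 scaled CPM in WT CNS and 29.3, 27.2, 20.8 and 32.5 in cKO CNS. In the dLN it measured 74.9, 68.9 and 92.7 in WT and 136, 221, 169 and 113 in cKO. The genotypes were apart in both tissues and stood in opposite order, with a rise of 2.02-fold in the dLN (log2 1.02, edgeR adjusted p = 0.0384), a log2 fold change of -0.72 in the CNS (adjusted p = 0.2) and an interaction of -1.74 ± 0.30 (adjusted p = 0.0472). Inpp4b, a phosphatase that limits phosphoinositide signalling (chr8:81342556-82127914), measured 153, 159 and 133 in WT CNS, 109, 81.6, 108 and 120 in cKO CNS, 103, 83.4 and 93.0 in WT dLN and 131, 171, 166 and 149 in cKO dLN. It too was lower in every cKO CNS library and higher in every cKO dLN library than in WT, and the interaction was -1.23 ± 0.20 (adjusted p = 0.0386). Kif21b, a kinesin motor (chr1:136131389-136177998), had the same order, at 20.4 to 26.1 in WT CNS, 13.1 to 14.8 in cKO CNS, 30.1 to 37.1 in WT dLN and 37.8 to 58.4 in cKO dLN (interaction -1.28 ± 0.22, adjusted p = 0.0472).

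Rpl23, a protein of the large ribosomal subunit (chr11:97777527-97782437), was the fifth of these genes. It measured 1640.3, 1629.9 and 1703.7 scaled CPM in WT CNS, 1219.6, 1169.0, 1120.0 and 1218.8 in cKO CNS, 1364.0, 1413.9 and 1564.1 in WT dLN and 1820.7, 1687.9, 1834.7 and 1635.4 in cKO dLN. The genotypes did not overlap in either tissue and the interaction was -0.76 ± 0.13 (edgeR adjusted p = 0.0472). Cd8b1 encodes the beta chain of CD8, the coreceptor of cytotoxic T cells (chr6:71322788-71337494), and differed through the dLN. It measured 14.2 to 21.5 in WT dLN and 192, 443, 375 and 99.6 in cKO dLN libraries 1 to 4, against 22.1 to 26.4 in WT CNS and 16.5 to 28.4 in cKO CNS. It rose 14.5-fold in the dLN (adjusted p = 0.00183), overlapped between genotypes in the CNS (log2 fold change -0.11, adjusted p = 0.940), and had an interaction of -3.97 ± 0.57 (adjusted p = 0.0297). The order of the cKO dLN libraries by Cd8b1 is the order of their CD8 T and NK cell marker sums and the reverse of their Trbv16 shares. Cd8b1 is itself a member of that list. With the marker sum as a covariate the interaction was -1.93 for Cd8b1, -0.81 for Lef1, -1.16 for Ogt and -0.64 for Rpl23 (edgeR adjusted p = 0.926 for each).

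On the positive side Ccl1, a chemokine made by activated T cells that binds CCR8 (chr11:82176657-82305690, minus strand), was lower in cKO cells of the dLN. It measured 30.6, 22.3 and 17.3 scaled CPM in WT dLN and 3.11, 4.18, 3.93 and 4.29 in cKO dLN. In the CNS it measured 600.8, 360.0 and 422.5 in WT and 1029.6, 353.2, 897.1 and 765.8 in cKO. The genotypes did not overlap in the dLN and overlapped in the CNS: Ccl1 fell 6.03-fold in the dLN (log2 -2.59, edgeR adjusted p = 0.0104), had a log2 fold change of 0.72 in the CNS (adjusted p = 0.302) and an interaction of 3.32 ± 0.49 (adjusted p = 0.0303).

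Sdf2l1, a cofactor of the chaperone machinery of the endoplasmic reticulum (ER; chr16:17130138-17132383, minus strand), had effects of about equal size and opposite sign in the tissues. It measured 44.6, 64.7 and 59.1 scaled CPM in WT CNS, 107, 134, 83.8 and 120 in cKO CNS, 71.6, 77.6 and 56.4 in WT dLN and 25.9, 32.5, 28.3 and 51.2 in cKO dLN. WT and cKO libraries were apart in both tissues. The log2 fold changes were 0.99 in the CNS (edgeR adjusted p = 0.137) and -0.99 in the dLN (adjusted p = 0.0456), and the interaction was 1.98 ± 0.32 (adjusted p = 0.0386). Slc43a3, a purine transporter (chr2:84936579-84958509), differed through the dLN, where it measured 22.8, 24.9 and 29.1 in WT and 7.78, 6.56, 6.73 and 10.3 in cKO, a 3.25-fold fall (adjusted p = 0.00685). In the CNS WT at 19.4 to 25.6 and cKO at 19.0 to 34.0 overlapped, and the interaction was 1.93 ± 0.30 (adjusted p = 0.0366).

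Wfdc17 and Plbd1 are genes of myeloid cells. Wfdc17 (chr11:83703991-83706268) measured 14, 17.0 and 16 scaled CPM in WT CNS and 53.6, 67.1, 39.5 and 23.1 in cKO CNS. It measured 2.48, 1.94 and 3.45 in WT dLN and was not detected in any cKO dLN library, where it was at least 12.6-fold lower (3 counts over the group as the limit). The fitted interaction of 8.30 ± 1.22 (edgeR adjusted p = 0.0386) depends on the prior count because a group is at 0. Plbd1, a lysosomal phospholipase (chr6:136612070-136661928), measured 18.8, 34.4 and 20.2 in WT CNS, 86.3, 88.8, 50 and 52.2 in cKO CNS, 4.68, 1.62 and 3.45 in WT dLN and 0.259, 0.895, 0.561 and 0.859 in cKO dLN, the last group resting on 9 counts in all (interaction 3.84 ± 0.66, adjusted p = 0.0472). Both genes were higher in cKO in the CNS, the tissue in which the MHC class II marker sum was higher in every cKO library. With the summed B cell, MHC class II and macrophage markers as a covariate their interactions were 7.74 and 3.46 (adjusted p = 0.00720 and 0.00957). That covariate is 1 sum with 1 slope for both tissues, and the part of myeloid RNA in these results was not tested. With the CD8 T and NK cell marker covariate the interactions were 7.71 and 3.64 (edgeR adjusted p = 0.926 for each). Each gene kept its call in 11 of 25 alternatives.

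Besides these 11 genes, 2 called genes fell outside the naming rule for their low level or predicted status and are named after their values were seen. Ccdc102a, a coiled-coil protein, was not detected in WT dLN and measured 1.43 to 5.37 scaled CPM in cKO dLN, at least 10.3-fold higher, with 3.83 to 5.77 in the CNS. The predicted gene Gm14085 measured 6.3 to 31.6 in cKO dLN and at most 2.01 in every other library (interaction -4.85 ± 0.85, edgeR adjusted p = 0.0472). Next by p, and not called, came Cst3, a cysteine protease inhibitor abundant in myeloid cells (1.3 ± 0.24), Kntc1, a kinetochore protein (2.05 ± 0.38), Ifitm3, an interferon-induced membrane protein (2.51 ± 0.48), the ER protein Creld2 (1.48 ± 0.29) and the RNA-binding protein Lsm7 (0.91 ± 0.18), with adjusted p of 0.0606 to 0.0646. On the negative side these included Ccr9, a gut-homing receptor (-4.19 ± 0.78), the channel-like protein Tmc8 (-1.22 ± 0.24) and the protease Adamts10 (-1.04 ± 0.21), over the same range of adjusted p.

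**Figure D3:**
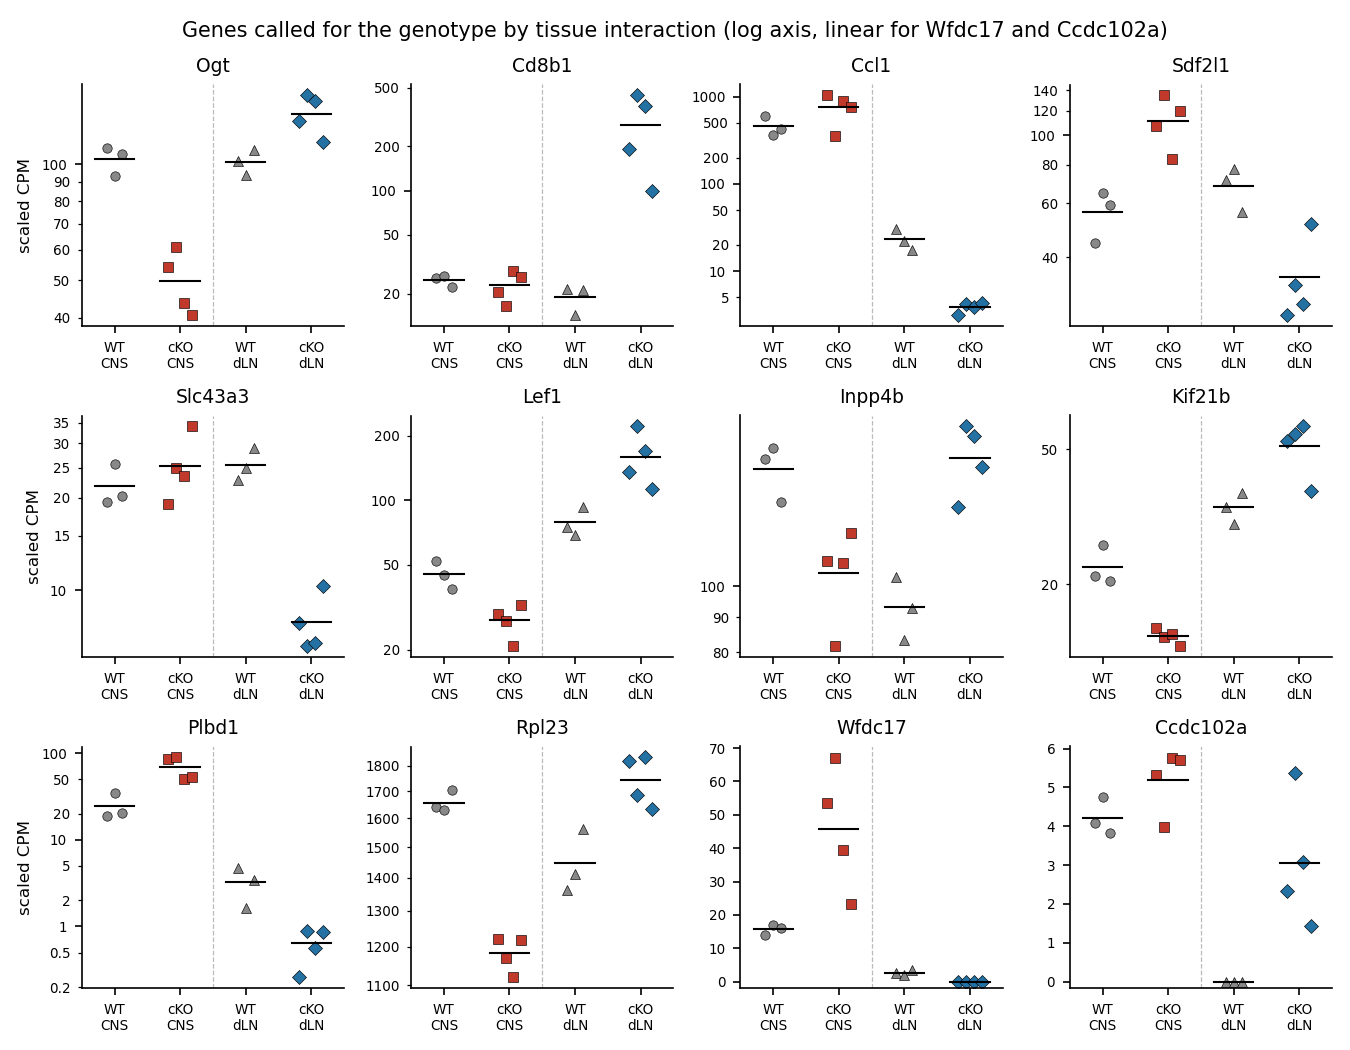
Scaled CPM of 12 of the 13 genes called for the interaction in each library, on log axes except for Wfdc17 and Ccdc102a, where a group is at 0. Points are libraries and bars group means. Ogt, Lef1, Inpp4b, Kif21b and Rpl23 are lower in cKO in the CNS and higher in cKO in the dLN, and Sdf2l1 and Plbd1 the reverse.

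Proliferation genes were lower in cKO cells of the dLN, with little difference in the CNS. Of 26 mitosis genes tested, 23 had a more positive effect in the CNS at an unadjusted p under 0.05 and none a more negative one (all genes: 9.52% and 9.38%), and none was called. Their median interaction was 1.64 against -0.05 over all genes, made up of a median of 0.27 in the CNS and -1.41 in the dLN. In the dLN 8 of the 26 fell at the adjusted threshold (all genes: 0.759%). Kif2c, a microtubule depolymerase of the kinetochore, measured 9.63, 12.6 and 7.48 scaled CPM in WT dLN and 2.08, 2.39, 1.68 and 5.15 in cKO dLN, against 9.77 to 11.7 in WT CNS and 9.42 to 14.4 in cKO CNS (interaction 2.03 ± 0.41, edgeR adjusted p = 0.0656). Aurka, a spindle kinase, measured 23.7, 22.6 and 18.1 in WT dLN and 5.71, 5.37, 5.61 and 13.5 in cKO dLN (interaction 1.90 ± 0.41, adjusted p = 0.0702). Cdk1, the kinase that drives entry into mitosis, measured 87.8, 122 and 67.3 in WT dLN and 17.6, 29.5, 18.5 and 63.0 in cKO dLN (interaction 1.79 ± 0.47, adjusted p = 0.0932). In each of these the genotypes did not overlap in the dLN, and cKO library 4 was the nearest to WT. Over the whole list, cKO lay below WT without overlap in the dLN for 16 of the 26, against 895 of all 11589 genes.

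The 31 DNA replication genes had the same signs, with 25 more positive in the CNS at an unadjusted p under 0.05 and none more negative (all genes: 9.52% and 9.38%). The median interaction was 1.14, from 0.23 in the CNS and -0.89 in the dLN, where 5 of the 31 fell at the adjusted threshold (all genes: 0.759%). Dut, which removes dUTP before DNA synthesis, measured 131, 154 and 96.4 scaled CPM in WT dLN and 49.8, 42.3, 50.2 and 84.4 in cKO dLN (interaction 1.45 ± 0.31, edgeR adjusted p = 0.0702). Mcm2, a subunit of the replicative helicase, measured 88.1, 98.6 and 74.2 in WT dLN and 48.8, 42.0, 47.7 and 70.1 in cKO dLN (interaction 0.96 ± 0.25, adjusted p = 0.0932). Over the mitosis list, the median difference from the WT mean was -2.04, -1.59, -1.77 and -0.37 in cKO dLN libraries 1 to 4 and 0.13, -0.23, 0.19 and 0.74 in cKO CNS libraries 1 to 4. Leaving out a library moved the mitosis median between 1.41 and 2.12 and the replication median between 0.91 and 1.45. With the CD8 T and NK cell markers as a covariate they were 0.76 and 0.52.

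Most genes of ER protein folding measured higher in cKO cells of the CNS and lower in those of the dLN. Of 20 genes of ER protein folding and stress, 14 had this pattern of signs (25.6% of all genes). At an unadjusted p under 0.05, 11 had a more positive interaction and 1 a more negative one (all genes: 9.52% and 9.38%). The median interaction was 0.61, from 0.29 in the CNS and -0.39 in the dLN, and Sdf2l1 was called. Hspa5 (BiP), the main ER chaperone, measured 316, 310 and 346 scaled CPM in WT CNS, 358, 550, 367 and 445 in cKO CNS, 216, 264 and 211 in WT dLN and 145, 122, 145 and 197 in cKO dLN. The genotypes did not overlap in either tissue (interaction 1.01 ± 0.25, edgeR adjusted p = 0.0780). The same held for Creld2, at 53.9, 55.9 and 60.0 in WT CNS, 85.8, 125, 71.9 and 83.8 in cKO CNS, 64.7, 66.9 and 45.5 in WT dLN and 31.9, 26.2, 35.6 and 43.2 in cKO dLN. The disulphide isomerases Pdia6 (1.22 ± 0.26) and Pdia3 (0.82 ± 0.18) and the chaperone Hsp90b1 (1.01 ± 0.23) also had genotypes that did not overlap in either tissue and stood in opposite order (adjusted p = 0.0702 for each), a pattern held by 153 of all genes (1.32%). The list's median stayed between 0.46 and 0.69 in all 25 alternatives. In cKO dLN libraries 1 to 4 the list's median difference from the WT mean was -0.38, -0.45, -0.48 and -0.14.

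Promoters of 3 of these genes are shown because many members share a known element. The ER stress element, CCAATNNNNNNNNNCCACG, was found on either strand in the 250 bases before the start site of 7 of the 18 list members with a RefSeq promoter (Calr, Canx, Creld2, Dnajc3, Hsp90b1, Hspa5 and Pdia6), against 0.130% of 27025 genes. The shorter CCAAT, which it contains, was found in 17 of 18 against 37.5% of all genes. This element was chosen after the values were seen, and a match is a description, not a binding site. Capitals mark the ER stress element in Creld2 and Canx, and CCAAT on either strand in Sdf2l1, whose window holds no full element in these letters. Sequences are RefSeq, GRCm38.p6, read in the direction of the gene (Creld2 chr15:88819396-88819645 plus strand, Canx chr11:50325674-50325923 minus strand, Sdf2l1 chr16:17132384-17132633 minus strand).
Creld2: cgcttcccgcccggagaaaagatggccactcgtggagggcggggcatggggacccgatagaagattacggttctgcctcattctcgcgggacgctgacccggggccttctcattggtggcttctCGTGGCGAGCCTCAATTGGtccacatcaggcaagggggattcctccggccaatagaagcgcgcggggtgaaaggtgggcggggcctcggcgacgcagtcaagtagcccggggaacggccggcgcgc
Canx: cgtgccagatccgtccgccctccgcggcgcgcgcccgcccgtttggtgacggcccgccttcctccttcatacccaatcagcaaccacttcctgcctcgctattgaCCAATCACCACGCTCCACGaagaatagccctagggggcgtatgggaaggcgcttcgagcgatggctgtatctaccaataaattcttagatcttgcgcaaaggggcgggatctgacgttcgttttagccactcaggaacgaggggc
Sdf2l1: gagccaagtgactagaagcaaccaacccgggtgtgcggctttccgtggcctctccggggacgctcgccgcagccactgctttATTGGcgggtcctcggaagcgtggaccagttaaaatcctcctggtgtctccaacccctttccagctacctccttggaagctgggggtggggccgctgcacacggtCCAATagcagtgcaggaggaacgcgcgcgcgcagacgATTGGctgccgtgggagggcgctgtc

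Respiratory chain and ribosomal protein genes had smaller effects of opposite sign. Of 45 nuclear genes of oxidative phosphorylation, 22 had a more positive interaction at an unadjusted p under 0.05 and none a more negative one (all genes: 9.52% and 9.38%). A further count, of members higher in the CNS and lower in the dLN of cKO cells, was 36 (25.6% of all genes). The medians were 0.21 in the CNS, -0.24 in the dLN and 0.40 for the interaction, as in Ndufb8, a complex I subunit (0.77 ± 0.19, edgeR adjusted p = 0.0845), and Sdhd of complex II (0.80 ± 0.20, adjusted p = 0.0819). The 13 mitochondrially encoded genes had a median interaction of -0.11, and edgeR gave none of them an unadjusted p under 0.05. Of 72 cytosolic ribosomal protein genes, 68 were lower in the CNS and higher in the dLN of cKO cells (29.2% of all genes), 47 had a more negative interaction at an unadjusted p under 0.05 and 1 a more positive one. The medians were -0.24, 0.19 and -0.46, and 56 of the 72 had an interaction interval within 1 on the log2 scale, against 37.6% of all genes. Rpl39 measured 1470.5, 1357.1 and 1378.4 scaled CPM in WT CNS and 1043.8, 822.2, 974.8 and 972.2 in cKO CNS, without overlap (interaction -0.79 ± 0.16, adjusted p = 0.0646). Of the cKO dLN libraries, library 4 lay nearest to WT for nuclear oxidative phosphorylation and for ribosomal proteins. Its list medians there differed from the WT mean by -0.08 and 0.06.

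Genes of stem-like and resting T cells measured higher in cKO cells of the dLN. Of 18 genes, 9 had a more negative interaction at an unadjusted p under 0.05 and none a more positive one (all genes: 9.38% and 9.52%). Lower in the CNS and higher in the dLN were 12 (29.2% of all genes). The medians were -0.21 in the CNS, 0.65 in the dLN and -0.63 for the interaction, and Lef1 was called. Cd27, a costimulatory receptor of the TNF receptor family, measured 116, 85 and 99.3 scaled CPM in WT dLN and 200, 286, 232 and 139 in cKO dLN, and 23.3 to 42.5 over all CNS libraries (interaction -1.44 ± 0.34, edgeR adjusted p = 0.0746). Bach2, a repressor that holds T cells in a resting state, measured 4.40, 4.20 and 7.19 in WT dLN and 15, 15.8, 26.7 and 12.0 in cKO dLN (interaction -2.45 ± 0.58, adjusted p = 0.0746). Tcf7, which encodes TCF-1, measured 127, 106 and 171 in WT dLN and 210, 230, 223 and 168 in cKO dLN, which overlap, and had an interaction of -1.03 ± 0.29 (adjusted p = 0.103). The list's median was -0.25 with the CD8 T and NK cell markers as a covariate. In cKO dLN libraries 1 to 4 the list's median difference from the WT mean was 0.72, 0.87, 0.75 and 0.36. Of 21 T cell receptor signalling genes, 15 were lower in the CNS and higher in the dLN (29.2% of all genes) and 6 lower in both (21.6%), with medians of -0.26, 0.19 and -0.42. In the CNS their difference from WT was largest in cKO library 2 (median -0.57), the library with the lowest sum of T cell lineage markers there (14427 scaled CPM), and the part of this in the result was not tested.

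**Figure D4:**
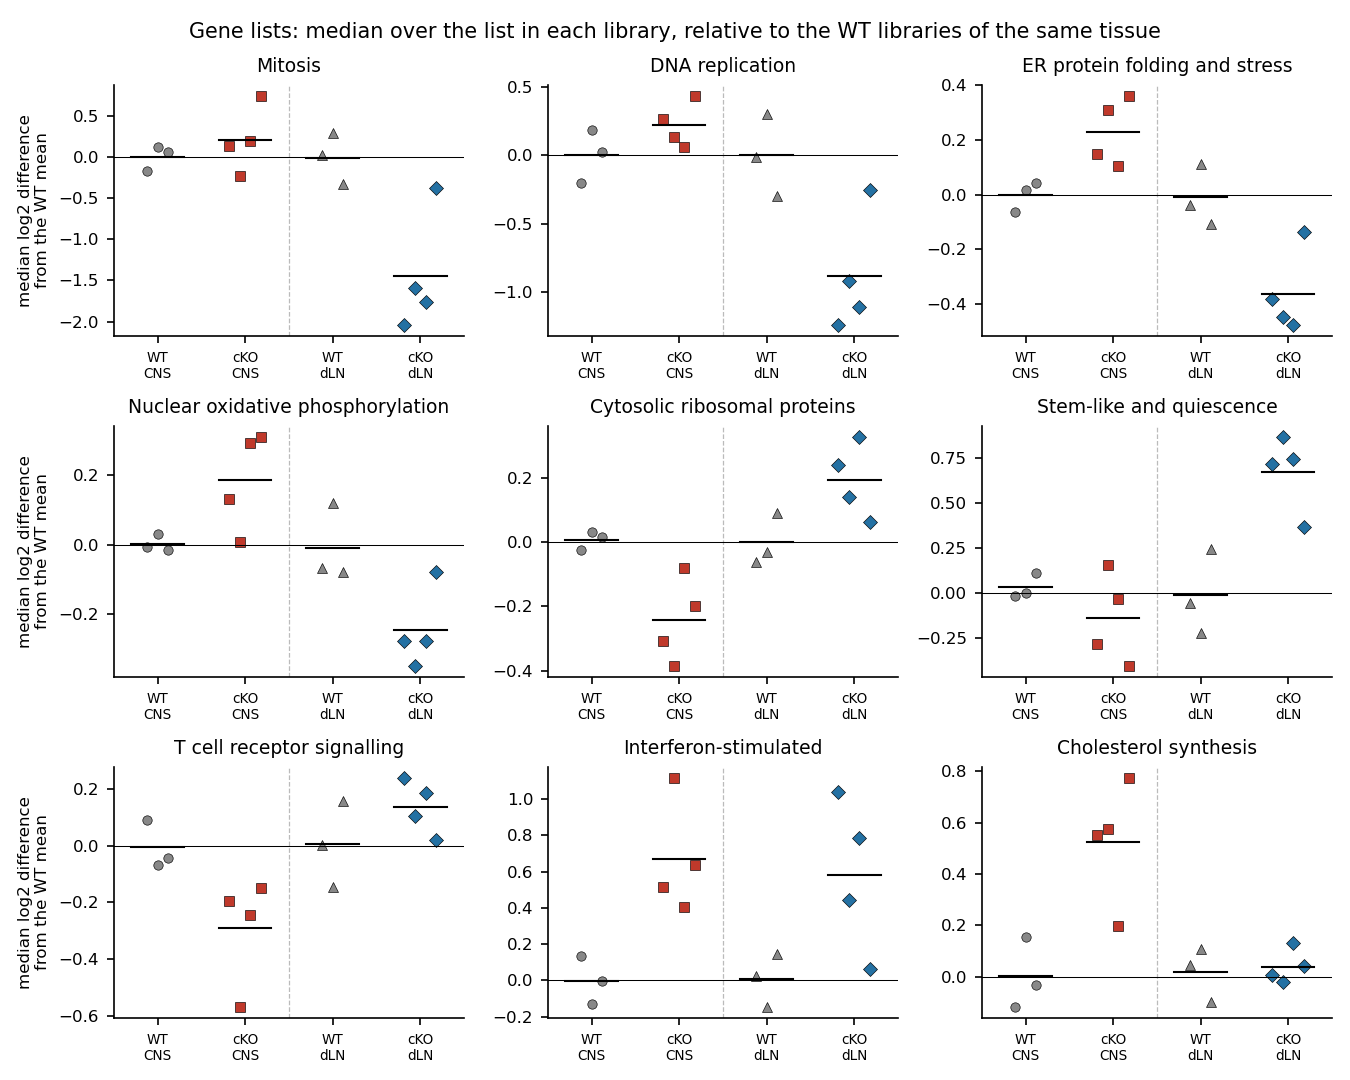
Median over each list of the log2 difference from the mean of the WT libraries of the same tissue, in each library. Points are libraries and bars group means. The group means of cKO in the CNS and the dLN lie on opposite sides of WT for the first 7 lists and above WT in both tissues for interferon-stimulated genes. Among the cKO dLN libraries, library 4 lies nearest to WT for the first 7 lists and for interferon-stimulated genes, but not for cholesterol synthesis.

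Genes on which the tissues agreed were sought in 3 ways, and the answer depends on the way. No gene was called in both tissues, in the same or in opposite directions, by edgeR, and 145 genes had an unadjusted p under 0.05 in both with the same sign against 211 with opposite signs. DESeq2 called 11 genes in both tissues in the same direction and 13 in opposite directions. The average of the 2 genotype effects was called for 50 genes (0.431%), 30 higher and 20 lower, of which 47 had the same sign in both tissues. At an unadjusted p under 0.05 the average was higher for 801 genes (6.91%) and lower for 743 (6.41%). For 102 genes (0.88%) the genotypes were apart in both tissues and stood in the same order. An interaction that is not called does not show agreement, and for 15 of the 50 the 95% interval of the interaction lay within 1 on the log2 scale (7 higher, 8 lower), against 37.6% of all genes. The count of 50 ranged from 0 to 435 when 1 library was left out, 435 without cKO dLN library 4, and lay outside 1.5 times the 50 for all libraries but cKO CNS 2, 3 and 4.

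Among the genes higher in cKO cells of both tissues were surface proteins of lymphocytes. B cell markers measured higher as well: of 11 tested, 9 were higher in both tissues (23.7% of all genes), 7 had a higher average at an unadjusted p under 0.05 (6.91%) and 1, Ighm, the heavy chain of IgM, was called (average log2 0.88). Their median average was 1.00, and the part of B cell RNA in the other results was not tested. Klrk1 encodes NKG2D, an activating receptor of NK and cytotoxic cells (chr6:129610323-129623864), and measured 15.3, 10.1 and 13.9 scaled CPM in WT CNS, 32.8, 46.5, 26.7 and 25.9 in cKO CNS, 4.68, 4.20 and 9.21 in WT dLN and 19.2, 16.4, 11.8 and 16.3 in cKO dLN. The genotypes did not overlap in either tissue. On average Klrk1 rose 2.57-fold (log2 1.36 ± 0.20, edgeR adjusted p = 0.0239), and the interaction was -0.06 with an interval of -0.91 to 0.78. Klrk1 is itself a member of the CD8 T and NK cell marker list, whose sum was higher in cKO in both tissues, and its part in the result was not tested. Ly6c2, a surface protein of memory T cells and monocytes (chr15:75108158-75111970), measured 157 to 221 in WT CNS, 331 to 542 in cKO CNS, 119 to 151 in WT dLN and 246 to 723 in cKO dLN, an average rise of 2.86-fold (adjusted p = 0.0195).

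Tubb2a, a beta tubulin (chr13:34074274-34078007), measured 12.0, 16.6 and 13.5 scaled CPM in WT CNS, 29.8, 33.0, 18.6 and 25 in cKO CNS, 4.13, 3.23 and 2.88 in WT dLN and 7.78, 11.0, 7.58 and 6.58 in cKO dLN (average 2.13-fold higher, edgeR adjusted p = 0.0263). H2-M3, an MHC class I molecule that presents formylated peptides (chr17:37270220-37274484), had nearly equal effects: its log2 fold changes were 0.46 in the CNS and 0.47 in the dLN, with an interaction interval of -0.37 to 0.35 (average adjusted p = 0.0361). It measured 44.8 to 49.6 in WT CNS and 62.4 to 66.2 in cKO CNS, and 26.2 to 32.2 in WT dLN and 34.4 to 46.5 in cKO dLN. Tapbpl, an editor of class I peptides, rose 1.64-fold on average (adjusted p = 0.0339), Zfp36, which destabilises cytokine messenger RNAs, 1.61-fold (adjusted p = 0.0366) and Tec, a kinase of receptor signalling, 2.12-fold (adjusted p = 0.0387). All 5 of these genes had genotypes that did not overlap in either tissue (0.88% of all genes, in the same order). They were named by p, which favours groups that lie apart, so this is a description.

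The genes lower in both tissues included metabolic and signalling genes. Abi2, a regulator of actin assembly (chr1:60409619-60481158), measured 13.4, 10.1 and 12.0 scaled CPM in WT CNS, 5.96, 5.74, 5.62 and 5.85 in cKO CNS, 14.3, 16.5 and 10.4 in WT dLN and 5.19, 6.26, 5.33 and 10.9 in cKO dLN. The genotypes did not overlap in the CNS and overlapped in the dLN through cKO library 4 (average 2.01-fold lower, edgeR adjusted p = 0.0275). Rbpj, the DNA-binding partner of Notch (chr5:53466152-53657362), measured 181, 150 and 157 in WT CNS, 103, 115, 63.9 and 102 in cKO CNS, 50.7, 67.9 and 46.3 in WT dLN and 21.8, 23.0, 28.1 and 41.5 in cKO dLN, without overlap (average 1.80-fold lower, adjusted p = 0.0361). Slc2a3, a glucose transporter (chr6:122727809-122801640), measured 30.1 to 32.7 in WT CNS, 16.6 to 24.1 in cKO CNS, 17.9 to 20.7 in WT dLN and 9.84 to 14 in cKO dLN (average 1.49-fold lower, adjusted p = 0.0400). Adam19, a membrane protease, fell 1.63-fold on average (adjusted p = 0.0328), Fech, the last enzyme of haem synthesis, 1.54-fold (adjusted p = 0.0361), Slfn9 1.60-fold (adjusted p = 0.0426) and Elk3, an ETS transcription factor, 1.71-fold (adjusted p = 0.0436). Each of these 7 genes had an interaction interval within 1 on the log2 scale. Only 15 of the 50 genes called for the average did, against 37.6% of all genes. The 7 were picked by the naming rule and do not stand for the 50. The rule also named Ermn, Trim59 and Angptl4, with average log2 fold changes of -1.07, -0.66 and -0.98 that were not called (adjusted p = 0.0682 for each).

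**Figure D5:**
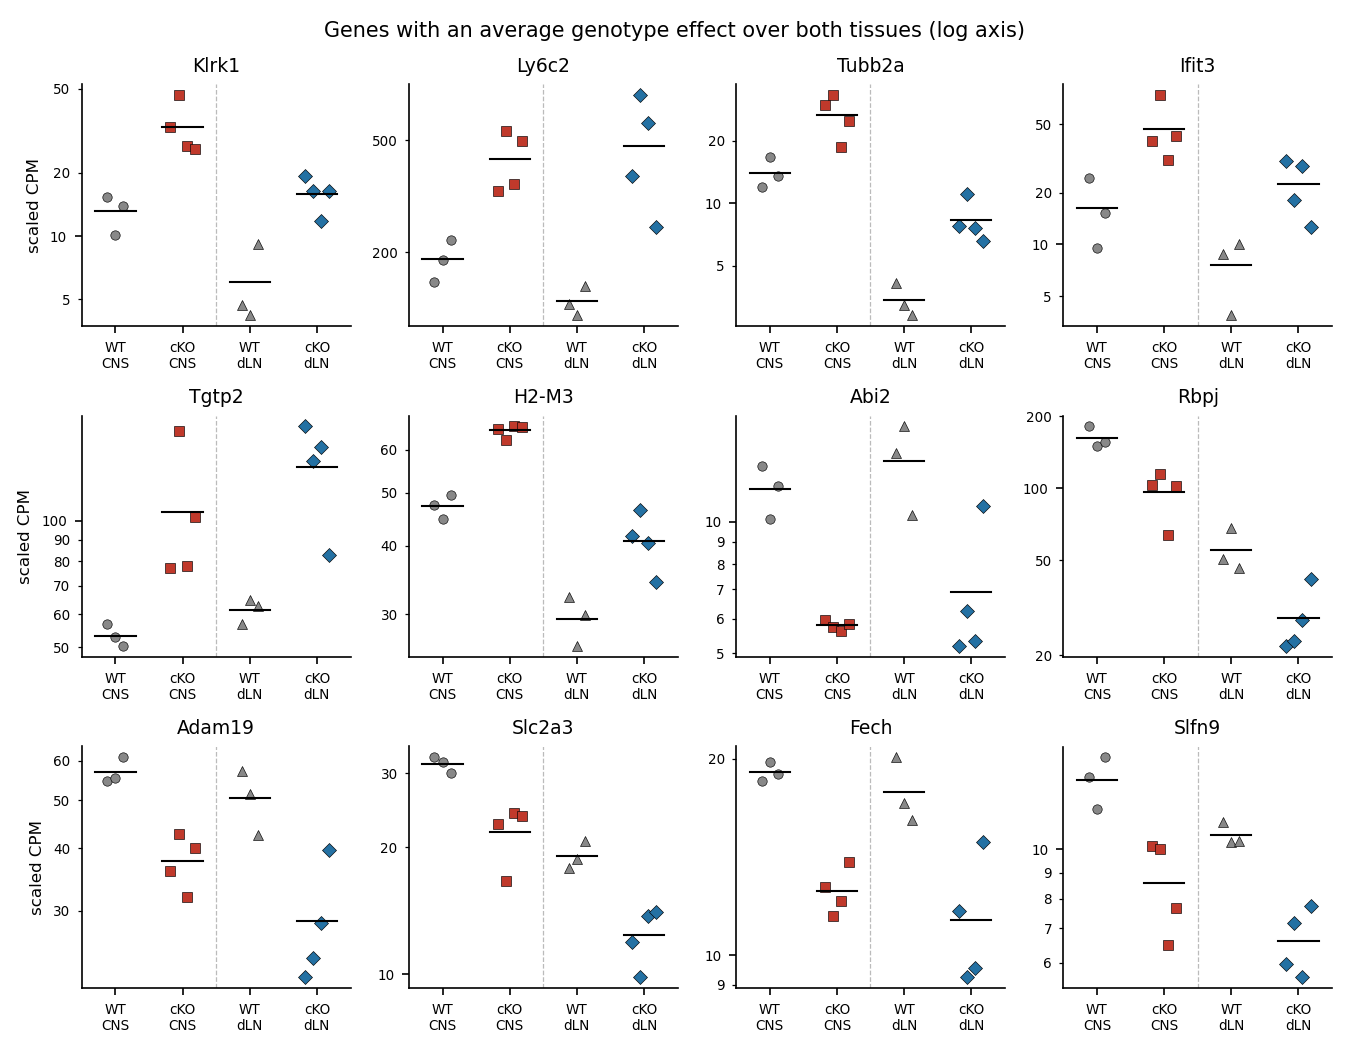
Scaled CPM (log axes) of 12 genes called for the average of both genotype effects in each library. Points are libraries and bars group means. The first 6 genes are higher in cKO in both tissues and the last 6 lower, and the genotypes overlap only for Abi2 in the dLN.

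Interferon-stimulated genes measured higher in cKO cells of both tissues. Of 32 genes, 29 were higher in cKO in both tissues (23.7% of all genes) and 25 had a higher average at an unadjusted p under 0.05 (6.91% of all genes), none lower, although only Ifit3 was called. The medians were 0.73 in the CNS, 0.65 in the dLN and 0.07 for the interaction. The 3 others, Psmb8, Ly6a and Ifi44, were higher in the CNS and lower in the dLN. Ifit3, which blocks translation of viral RNA in a complex with Ifit1 (chr19:34583531-34588731), measured 24.2, 9.52 and 15.3 scaled CPM in WT CNS, 39.8, 73.3, 31.1 and 42.5 in cKO CNS, 8.81, 3.88 and 10.1 in WT dLN and 30.4, 18.2, 28.6 and 12.6 in cKO dLN. WT and cKO libraries were apart in both tissues, and Ifit3 rose 2.89-fold on average (log2 1.53 ± 0.29, edgeR adjusted p = 0.0361). Isg15, a ubiquitin-like protein, measured 36.6, 30.3 and 34.4 in WT CNS and 41.9, 128, 47.3 and 66.3 in cKO CNS, and 10.5, 13.3 and 6.62 in WT dLN and 40.0, 15.8, 20.5 and 11.5 in cKO dLN, where the genotypes overlap through library 4 (average log2 1.10 ± 0.31, adjusted p = 0.126). Tgtp2, an interferon-induced GTPase outside the list, rose 2.08-fold on average (adjusted p = 0.0328).

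The effect varied between members and libraries. Bst2, which tethers virus particles to the cell, measured 151, 138 and 141 scaled CPM in WT CNS and 246, 368, 205 and 241 in cKO CNS, but 83.4, 67.6 and 79.1 in WT dLN and 112, 86.2, 92.3 and 67.6 in cKO dLN (interaction 0.66 ± 0.27, edgeR adjusted p = 0.211). Iigp1, another interferon-induced GTPase, had log2 fold changes of 1.51 in the CNS and 0.10 in the dLN (interaction 1.40 ± 0.64, adjusted p = 0.254). Over the list, the median difference from the WT mean was 0.52, 1.12, 0.40 and 0.64 in cKO CNS libraries 1 to 4, and 1.04, 0.44, 0.78 and 0.06 in cKO dLN libraries 1 to 4, the last within the WT range of -0.15 to 0.15. In 12 of the 32 the interaction interval lay within 1, the share of all genes being 37.6%. The average stayed at 0.56 to 0.75 in 21 alternatives. The median interaction ranged from -0.07 to 0.30 when 1 library was left out and was 0.57 with the CD8 T and NK cell markers as a covariate. RNA of macrophages, which also express these genes, was higher in 3 of 4 cKO CNS libraries, and its part in the result was not tested.

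The promoters of this list were searched in the same way. GAAANNGAAA, the core of the interferon-stimulated response element, was found on either strand in 12 of the 22 list members with a RefSeq promoter, against 3.46% of 27025 genes. The promoters of Ifit3 and Isg15 are shown because both genes were higher in cKO in the 2 tissues, with the element in capitals where it matched, overlapping matches running together (GRCm38.p6, Ifit3 chr19:34583279-34583528 plus strand, Isg15 chr4:156200819-156201068 minus strand). The element was chosen after the values were seen and, as above, a match is a description only.
Ifit3: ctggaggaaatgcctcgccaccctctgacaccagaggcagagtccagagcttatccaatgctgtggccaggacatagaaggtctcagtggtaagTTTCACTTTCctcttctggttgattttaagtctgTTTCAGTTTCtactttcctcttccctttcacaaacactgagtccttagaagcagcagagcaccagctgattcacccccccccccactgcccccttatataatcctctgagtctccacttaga
Isg15: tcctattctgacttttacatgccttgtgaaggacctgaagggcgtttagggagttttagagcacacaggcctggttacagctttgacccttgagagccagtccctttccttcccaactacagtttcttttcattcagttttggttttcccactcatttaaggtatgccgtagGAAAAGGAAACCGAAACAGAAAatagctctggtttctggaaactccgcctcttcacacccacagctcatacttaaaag

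Cholesterol synthesis genes were higher in cKO in the CNS with little difference in the dLN. Of 22 genes, 9 were higher in the CNS and lower in the dLN (25.6% of all genes) and 11 higher in both (23.7%). Another 2 were lower in the CNS and higher in the dLN (29.2%). The medians were 0.61 in the CNS, 0.11 in the dLN and 0.40 for the interaction. At an unadjusted p under 0.05, 4 had a more positive interaction and none a more negative one, beside 9.52% of all genes. Fdps, which makes farnesyl pyrophosphate, had log2 fold changes of 1.16 in the CNS and -0.04 in the dLN, and Sqle, which epoxidises squalene, 0.64 and -0.60. Immediate early genes (20) and genes of NF-kB and cytokine signalling (22) had median interactions of -0.02 and 0.01 and no interaction call. For the average of both tissues, 1 immediate early gene was called higher.

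Genes of Th17 identity measured lower in cKO cells of both tissues, though none was called. Of 20 listed, 14 were tested, of which 9 were lower in both tissues (21.6% of all genes), and 6 had a lower average at an unadjusted p under 0.05 (6.41%) and none a higher one. The medians were -0.34 in the CNS, -0.48 in the dLN and -0.45 for the average, which stayed between -0.58 and -0.36 in 21 alternatives. Average log2 fold changes were -0.84 for Maf, -0.65 for Irf4 and -0.39 for Batf, transcription factors of Th17 cells (edgeR adjusted p = 0.216, 0.324 and 0.154). The 13 of 18 pathogenic Th17 genes tested had a median interaction of 0.87, with 8 positive and 5 negative. It ranged from 0.32 to 1.19 in 25 alternatives. The median was 0.57 in the CNS, with no median difference in the dLN. The part of members near 0 in the dLN in this value was not tested. Of the 13, 3 were positive and none negative at an unadjusted p under 0.05 (all genes: 9.52% and 9.38%).

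Some Th17 genes were near 0. Il17a was detected only in the CNS, at 0.461 to 0.911 scaled CPM in WT and 0.130 to 0.805 in cKO, from 12 and 13 counts, and Csf2 rested on 6 and 16 counts there and 0 and 2 in the dLN. Il23r had 9 counts in WT CNS, 0 in cKO CNS, 0 in WT dLN and 3 in cKO dLN, and these 3 genes were not tested. Il17f measured 2.19, 15.8 and 3.1 in WT CNS and 0, 1.18, 0.288 and 0.390 in cKO CNS, while the dLN groups held 3 and 16 counts (edgeR interaction adjusted p = 0.0932). Il10 was not detected in the dLN and measured 0.875, 3.07 and 11.5 in WT CNS and 0.161, 0.294, 3.89 and 0.390 in cKO CNS.

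Other regulators of helper T cells had larger counts. Ifng, the Th1 cytokine, measured 21.7, 20.3 and 23.1 scaled CPM in WT CNS and 55.2, 183, 34.2 and 114 in cKO CNS, without overlap, and 1.94 or less in the dLN (interaction 3.58 ± 1.54, edgeR adjusted p = 0.229). Tbx21, its transcription factor T-bet, measured 36.1, 33.3 and 26.5 in WT dLN and 8.04, 15.2, 12.6 and 26.3 in cKO dLN and overlapped between genotypes in the CNS (interaction 1.20 ± 0.40, adjusted p = 0.140). Foxp3, the factor of regulatory T cells, was not detected in WT dLN and measured 4.41, 6.26, 3.93 and 1.72 in cKO dLN, at least 13.8-fold higher (adjusted p = 0.0104). In the CNS it measured 2.62, 1.69 and 1.28 in WT and 6.60, 4.42, 3.32 and 3.90 in cKO. The genotypes thus did not overlap in either tissue and stood in the same order (average edgeR adjusted p = 0.0195). The same order does not mean an equal effect. The Foxp3 interaction, not called in the main fit, was -6.50 to -3.49 in 23 alternatives and called in 4 of them. Since WT dLN is at 0, these fitted values depend on the prior count. Tsc22d3, a glucocorticoid-induced gene, measured 76.3, 99.9 and 132 in WT dLN and 251, 309, 241 and 166 in cKO dLN, where it rose 2.35-fold (adjusted p = 0.0345), and overlapped in the CNS (interaction -0.89 ± 0.35, adjusted p = 0.194). The glucocorticoid receptor gene Nr3c1 (interaction -0.94 ± 0.37, adjusted p = 0.191) and its target Fkbp5 (0.26 ± 0.50, adjusted p = 0.837) were not called.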

How the data were processed

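RNA of 2000 sorted cells per library was sequenced after 12 cycles of amplification by a modified SMART-Seq2 protocol, per the labels. The authors deposited estimated counts per gene, 1 table per tissue, and the submitters' processing notes name RSEM 1.3.3 and the mm10 build. The aligner and annotation are not given in the sources used here, nor is strandedness. Here the estimated counts were rounded and the tables joined by symbol. Genes passing edgeR's filterByExpr (minimum count 10, minimum total 15; 11589 genes) were fitted by edgeR 4.0.16 quasi-likelihood (R 4.3.3) with TMM scaling, 4 group means over all 14 libraries and Benjamini-Hochberg adjustment. Errors are standard errors, intervals are 95%, and all tests are 2-sided. Levels are not per length and are compared only within a gene. Depth was 3148634 to 6262849 counts, and amplified reads without molecular identifiers make intervals and limits cover counting error only. On simulated data of 11320 genes the interaction test recovered 32% of genes changed by a log2 of 1 and 88% of those changed by 2. It also called 6 unchanged genes. Changes were placed only in cKO CNS and in genes with a mean of at least 10 CPM, without any other genotype effect. These shares do not cover genes of lower level. Among 18 pairs of libraries within a group none agreed within sampling noise (lowest chi-square per degree of freedom 6.27).

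Genes were named by a rule: Chd1, called genes with a group mean of at least 10 scaled CPM, filled to 10 per direction by p, the 4 members of each list with the smallest interaction p, and 13 fixed genes. Predicted, mitochondrial, repeat and segment features were left out. A gene named otherwise was chosen after its values were seen. The comparison, the members and the lists were chosen with earlier results of these data known. Alternatives were DESeq2 1.42.0, its size factors, other filters, repeats removed, blocks (limma 3.58.1), marker covariates, each table alone and each library left out. Gene positions are from GENCODE on GRCm38, where 30464 of 31053 symbols matched, and promoter sequences from RefSeq. Results for 3 genes that the rule names are not reported here.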

Additional observations from a re-analysis of the deposited data

Results flagged for a closer look

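Among 204 sets of 4 libraries tested for a value far from the other 3, 12 had one, and chance gives about 1 in 20. In cKO CNS library 3, Kntc1 was 5.62 scaled CPM (others 8.19 to 8.69), Ccr9 4.04 (2.09 to 2.36) and the B cell marker sum 467 (97.7 to 125). In cKO CNS library 2, H2-M3 was 62.4 (65.5 to 66.2), and in library 4 Aurkb was 64.5 (39.5 to 42.8). In cKO dLN library 4, Tapbpl was 28.1 (43.1 to 46.0), Prim1 17.7 (10.4 to 11.5), Aurka 13.5 (5.37 to 5.71), Fkbp5 17.5 (7.75 to 8.98) and the neutrophil marker sum 75.3 (1.82 to 6.56). In cKO dLN library 3 Ndufb8 was 129.6 (110 to 113), and Csf2 was 0.519 in library 1 and 0 in the others.

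The genotype effect differed between the tissues, by edgeR's test of the interaction, for 13 genes. The log2 interaction was 3.32 for Ccl1, 1.98 for Sdf2l1, 1.93 for Slc43a3, 3.84 for Plbd1 and 8.30 for Wfdc17. It was -1.74 for Lef1, -1.46 for Ogt, -1.23 for Inpp4b, -1.28 for Kif21b, -3.97 for Cd8b1, -0.76 for Rpl23, -4.85 for Gm14085 and -6.66 for Ccdc102a. The values for Wfdc17 and Ccdc102a depend on the prior count, since a group of each is at 0.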

How the results depend on the processing

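Counts of calls moved more than directions. Over 64 genes and up to 25 alternatives, 1586 of 1587 interaction values kept their sign, as did all 436 average values of 21 genes in up to 21 alternatives, while the Fkbp5 interaction (0.26, not called) became -0.79 with the CD8 T and NK cell marker covariate. The 13 interaction calls became 563 by DESeq2 (12 shared), 7 with its size factors, 172 without a filter, 95 at 10 CPM or more, 637 with the other-cell marker covariate, 0 without cKO dLN library 2 (Trbv16 under 95%), 0 with the CD8 T and NK cell covariate (chosen after seeing the data) and 0 to 648 without 1 library. Of these, WT dLN library 3 (24), cKO CNS library 2 (28), cKO CNS library 1 (6) and cKO CNS library 3 (8) also moved it by over 1.5 times. The 3 CNS calls became 171 by DESeq2, 5 with its size factors, 75 without a filter, 6 at 10 CPM or more, 5 without repeats, 1 in the CNS table alone and 0 to 5 without 1 library. The 192 dLN calls became 584 by DESeq2, 430 without a filter, 7 in the dLN table alone and 6 to 884 without 1 library, 6 without WT dLN library 1 or 2. The 50 average calls became 269 by DESeq2, 227 without a filter, 33 at 10 CPM or more and 0 to 435 without 1 library. Genes called in both tissues became 11 in the same direction by DESeq2 and 7 without a filter, and 13 and 3 in opposite directions, with 0 to 0 and 0 to 1 without 1 library. The cause of these differences was not tested.

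Whether the same replicate number marks paired samples could not be settled. Over 7 pairs of the same number the correlation of deviations was -0.04 to 0.10, and 4 of 7 libraries correlated best with their own number. With only 3 or 4 libraries per group this check cannot exclude pairing. A replicate block by number gave 141 interaction, 4 CNS, 658 dLN and 291 average calls, a fixed block of 7 numbers within genotype 52 interaction calls, and limma's random block (correlation 0.069) 84, 20, 38 and 3. In the simulation of the interaction, 32% of changes of a log2 of 1 were recovered, for genes with a mean of at least 10 CPM only.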
